A study of Mus musculus with 36 samples.

Results

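Germ cells of the fetal ovary were compared between the last and the first stage of a series of fetal gonads, on the 3 arrays titled Oct4_XX_TS34 and the 3 arrays titled Oct4_XX_TS13, 6 of 36 arrays in all. These 6 arrays were chosen by their titles alone, with no measured value. TS34 and TS13 are the stage names of the labels, which place TS34 after the gonads have differentiated by sex and TS13 before they begin to. At both stages the cells carried an Oct4 reporter, came from XX fetuses of mixed background descending from C57BL/6NJ, and were sorted by fluorescence from gonads that had been pooled by sex and dissociated with trypsin. XY germ cells at TS34 and TS13, 3 arrays each, carried the same reporter on the same background. XX supporting cells at TS34 and TS13, 3 arrays each, are the somatic lineage that nurses germ cells and were sorted through Sry-EGFP from CD-1 mice, so cell type and mouse line cannot be told apart. An array titled as XX germ cells at TS24 had a somatic profile and was left out. Neither the gate of the sort nor the number of gonads in a pool is given in the sources used here. Nothing says that arrays of 1 group came from separate pools. A p-value here thus reflects only a spread among arrays, and that spread may be technical.

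Fetal germ cells arrive in the gonad as dividing primordial germ cells that express much of the pluripotency network of early embryos. In the ovary they stop dividing and enter meiosis before birth, when retinoic acid and BMP signals switch on Stra8, the gatekeeper of meiotic entry, and MEIOC and its partner YTHDC2 bind RNA to hold cells in meiotic prophase. In the testis the same cells are kept out of meiosis and turn to a male programme marked by Nanos2. In meiotic prophase the chromosomes build a protein axis and a synaptonemal complex between paired homologues, receive programmed breaks from SPO11, and repair them with the meiotic recombinase DMC1.

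The promoter windows of 7 genes are shown first, picked by hand as examples and not by size of change. They are the regulators Stra8 and Meioc, the recombination gene Spata22, the axis and synaptonemal complex genes Sycp1, Tex12 and Hormad1, and the pluripotency factor Nanog. Each window runs from 250 bases before to 50 bases after the start of the gene (RefSeq, GRCm38.p6), 5′ to 3′ on the strand of the gene. Where a gene had 2 starts, the first in the table is printed. Capitals mark matches on either strand to the E-box CACGTG, the E2F site GCGGGAA, CNCCTCAG (an element reported in promoters bound by STRA8), the hexamer AGGTCA (one arm of many nuclear receptor sites, not a whole one), the octamer ATGCAAAT or the cyclic AMP response element TGACGTCA.
Stra8, chr6:34920698-34920997, plus strand: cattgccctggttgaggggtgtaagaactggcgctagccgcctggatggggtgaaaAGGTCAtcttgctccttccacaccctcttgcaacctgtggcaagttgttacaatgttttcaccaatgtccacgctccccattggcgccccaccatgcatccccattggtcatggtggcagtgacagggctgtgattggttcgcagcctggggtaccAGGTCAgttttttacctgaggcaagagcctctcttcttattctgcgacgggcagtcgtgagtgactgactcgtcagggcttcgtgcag
Meioc, chr11:102665335-102665634, plus strand: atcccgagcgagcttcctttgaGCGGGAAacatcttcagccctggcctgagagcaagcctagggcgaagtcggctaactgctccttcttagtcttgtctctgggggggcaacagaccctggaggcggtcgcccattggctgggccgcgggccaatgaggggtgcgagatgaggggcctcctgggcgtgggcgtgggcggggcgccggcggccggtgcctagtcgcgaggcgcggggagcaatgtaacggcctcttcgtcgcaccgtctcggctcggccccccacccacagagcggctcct
Spata22, chr11:73329491-73329790, plus strand: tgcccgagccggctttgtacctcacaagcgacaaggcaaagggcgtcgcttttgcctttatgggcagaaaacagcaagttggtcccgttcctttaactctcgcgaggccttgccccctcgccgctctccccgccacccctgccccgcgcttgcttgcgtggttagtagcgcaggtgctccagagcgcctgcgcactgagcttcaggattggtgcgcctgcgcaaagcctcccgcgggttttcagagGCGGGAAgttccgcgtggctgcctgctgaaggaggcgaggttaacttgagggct
Sycp1, chr3:102936051-102936350, minus strand: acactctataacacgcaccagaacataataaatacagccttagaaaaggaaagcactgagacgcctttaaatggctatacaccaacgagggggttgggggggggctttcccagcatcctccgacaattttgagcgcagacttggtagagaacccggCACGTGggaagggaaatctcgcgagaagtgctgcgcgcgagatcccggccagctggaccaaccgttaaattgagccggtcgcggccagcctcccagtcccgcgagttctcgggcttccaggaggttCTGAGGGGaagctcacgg
Tex12, chr9:50561219-50561518, minus strand: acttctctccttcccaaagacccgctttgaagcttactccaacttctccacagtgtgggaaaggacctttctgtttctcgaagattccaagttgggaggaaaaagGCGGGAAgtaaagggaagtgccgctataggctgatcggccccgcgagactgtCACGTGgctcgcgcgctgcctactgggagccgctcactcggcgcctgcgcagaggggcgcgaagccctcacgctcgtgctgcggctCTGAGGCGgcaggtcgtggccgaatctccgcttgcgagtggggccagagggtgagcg
Hormad1, chr3:95559427-95559726, plus strand: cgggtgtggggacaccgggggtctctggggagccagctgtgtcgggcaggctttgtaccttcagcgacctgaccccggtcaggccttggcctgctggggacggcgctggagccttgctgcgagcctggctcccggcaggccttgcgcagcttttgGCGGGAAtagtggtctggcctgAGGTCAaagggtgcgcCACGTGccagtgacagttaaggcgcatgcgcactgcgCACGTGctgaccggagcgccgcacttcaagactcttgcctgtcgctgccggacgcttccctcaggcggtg
Nanog, chr6:122707239-122707538, plus strand: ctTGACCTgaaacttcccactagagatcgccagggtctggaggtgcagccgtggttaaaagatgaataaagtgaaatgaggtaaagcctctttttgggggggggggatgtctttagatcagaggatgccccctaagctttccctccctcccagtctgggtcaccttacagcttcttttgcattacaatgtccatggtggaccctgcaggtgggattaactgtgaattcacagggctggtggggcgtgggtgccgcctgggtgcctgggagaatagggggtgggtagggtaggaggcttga
The Stra8 window held 2 AGGTCA matches and none of the other letters searched. Meioc and Spata22 each held 1 E2F match. Sycp1 held 1 E-box and 1 CNCCTCAG match, Tex12 held 1 match each to the E-box, E2F and CNCCTCAG letters, and Hormad1 held 2 E-boxes, 1 E2F match and 1 AGGTCA match. Nanog held 1 AGGTCA match, in the printed window.

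The arrays (Affymetrix Mouse Gene 1.0 ST) gave log2 expression values, and all differences below are TS34 minus TS13 on that log2 scale, ± SE, with n = 3 arrays each. The SE and the limma p-value use a spread that is shared over 35 arrays in 12 groups, not that of the 6 arrays alone. A gene can therefore vary widely within 1 stage and have a small SE, as Fabp9 did (SD 1.66 at TS13, SE 0.34). A gene was called at an adjusted p under 0.05 (limma, Benjamini-Hochberg over the 17571 genes tested, two-sided), and "rose" or "fell" is written only of called genes. Array medians were 6.84, 6.57 and 6.46 on the TS34 arrays, against 6.78, 6.60 and 6.65 on the TS13 arrays. A first principal component over the 6 arrays held 60.2% of the variance and separated the stages, with scores of 13.7, 42.4 and 48.9 on the TS34 arrays and of -44.7, -25.8 and -34.6 on the TS13 arrays. TS34 replicate 1 thus lay nearest to TS13. Among the genes that fell it was the highest of the 3 TS34 arrays for 1586 of 1907, and for 916 once each array's median was subtracted. Precision is limited by how many arrays there are, and the median SE of a difference was 0.211.

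Between TS13 and TS34, 1166 genes rose in XX germ cells (6.64% of those tested) and 1907 fell (10.9%). By at least 1 on the log2 scale, 460 rose and 641 fell. By at least 2, 69 rose and 48 fell. The median difference over all genes tested was -0.14. The lists below should be read beside that value, and their counts of calls beside the 6.64% and 10.9% above. Quantile normalization moved the median to -0.06 and turned the balance of the calls: 2020 genes rose (11.5%) and 1742 fell (9.91%), so that rises were 53.7% of the calls, against 37.9% as deposited and 46.4% after median centring. All 1166 rises and 1670 of the 1907 falls were called in the same direction after quantile normalization, and 0 genes turned. Without TS34 replicate 1 the falls numbered 2925, without TS34 replicate 3 they numbered 1092 and without TS13 replicate 1 they numbered 1254, while rises stayed between 846 and 1084 with any of the 6 arrays left out.

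Stra8 had the largest rise of all. It stood at 10.39, 10.06 and 10.21 on the TS34 arrays, against 5.22, 4.92 and 5.35 on the TS13 arrays. The TS34 arrays were all high and the TS13 values lay below 5.42, the mean 25th percentile of the TS13 arrays, with no overlap. The difference was 5.06 ± 0.22 (limma adjusted p = 5.99e-24). Meioc, whose product keeps meiotic cells out of a return to mitosis, stood at 9.53, 9.64 and 10.09 at TS34, against 5.48, 4.84 and 4.66 at TS13. Again the groups lay far apart, with a difference of 4.76 ± 0.29 (limma adjusted p = 9.92e-18). Of the other meiotic entry regulators, the RNA-binding factor Boll rose by 1.6 ± 0.26, the MEIOC partner Ythdc2 by 1.22 ± 0.32, the germ cell transcription subunit Taf4b by 1.10 ± 0.21, the translational regulator Dazl by 1.09 ± 0.27 and the RNA-binding factor Rbm46 by 0.98 ± 0.26. In all, 7 of the 10 tested members of this list rose and 0 fell, with a median of 1.09. Msx1, Msx2 and Zglp1, transcription factors of BMP-driven entry, did not pass, with differences of 0.12, 0.30 and 0.29. Meiosin (Bhmg1), the partner of STRA8, was not analysed here.

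**Figure D1:**
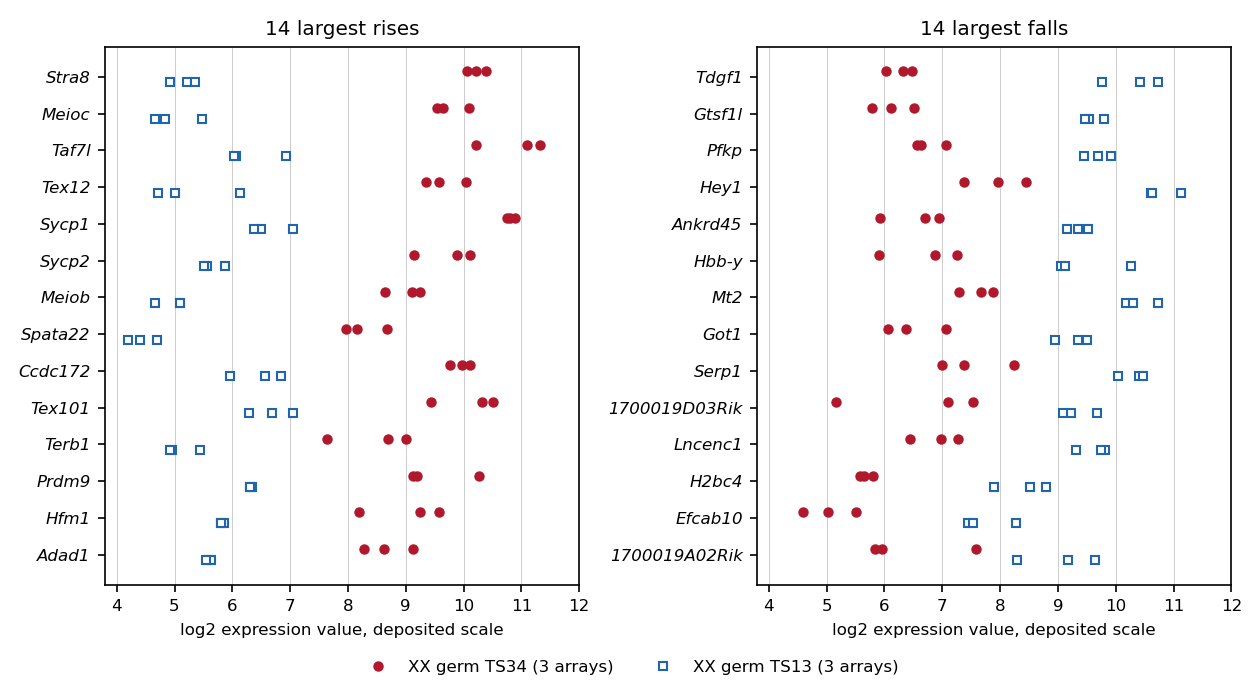
Log2 expression values (x axis, deposited scale) on each of the 3 TS34 arrays (filled red circles) and the 3 TS13 arrays (open blue squares) for the 14 genes with the largest rises and the 14 with the largest falls. Groups do not overlap in any row, which the choice of these genes required, and Stra8 sits between 10.06 and 10.39 at TS34, against 4.92 to 5.35 at TS13.

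Among genes of the chromosome axis and the synaptonemal complex 8 of 10 tested rose, with a median of 1.79. Sycp1, which forms the transverse filaments, stood at 10.89, 10.76 and 10.81 at TS34, against 6.50, 7.06 and 6.37 at TS13. All TS34 arrays lay within a narrow band above every TS13 array, a difference of 4.17 ± 0.25 (limma adjusted p = 2.00e-18). Tex12, of the central element, had 9.36, 9.58 and 10.05 at TS34, against 5.02, 6.13 and 4.72 at TS13, and TS13 replicate 2 was the highest of its group in both genes. Its difference was 4.37 ± 0.42. Sycp2, of the lateral elements, rose by 4.07 ± 0.24, Syce1 of the central element by 2.21 ± 0.23, and the axis proteins Hormad2 and Hormad1 by 1.94 ± 0.30 and 1.63 ± 0.25. Sycp3, already at a mean of 9.35 at TS13, rose by 1.57 ± 0.27 and 4930447C04Rik (Six6os1) by 1.37 ± 0.22. Syce2 and Trip13, the ATPase that remodels HORMA proteins, did not pass, at -0.02 and -0.28, and both were high at either stage. Meiotic cohesin subunits rose in 3 of 3 tested genes (1 with all 36 arrays in the fit), Rec8 by 2.64 ± 0.23, Smc1b by 1.69 ± 0.26 and Stag3 by 1.38 ± 0.23. Of 14 mitotic and shared cohesin genes 1 rose (Stag2, 1.42 ± 0.20) and 2 fell (the kleisin Rad21 by 0.79 and the centromere protector Sgo1 by 1.04), where 6.64% of all genes rose and 10.9% fell.

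Of 10 tested genes of break formation 9 rose and 0 fell, with a median of 1.13. Prdm9, the methyltransferase that chooses break sites, had 9.19, 9.12 and 10.27 at TS34, against 6.33, 6.31 and 6.30 at TS13. TS34 replicate 3 stood above the other two, and all 3 lay well above TS13 (3.21 ± 0.25, limma adjusted p = 1.71e-14). Spo11 itself rose less, by 1.80 ± 0.23, followed by the damage kinase Atm (1.28 ± 0.22), the SPO11 cofactors Mei1 (1.19 ± 0.23) and Rec114 (1.09 ± 0.23), and the histone reader Zcwpw1 (1.17 ± 0.23). Hells, a chromatin remodeller that works with PRDM9, was at 0.19 and did not pass. Among 23 tested genes of strand exchange and crossover formation 16 rose and 0 fell, with a median of 1.49. The single-strand binding pair Meiob and Spata22 led. Meiob had 9.11, 8.65 and 9.24 at TS34, against 5.10, 5.10 and 4.66 at TS13 (4.05 ± 0.27), and Spata22 had 8.16, 7.97 and 8.67 at TS34, against 4.69, 4.20 and 4.41 at TS13 (3.83 ± 0.20). Both were low on every TS13 array and above the array median on every TS34 array. The crossover helicase Hfm1 rose by 3.19 ± 0.25 and Dmc1 by 3.04 ± 0.29. Dmc1 already averaged 7.86 at TS13. The nuclease Exo1 (-0.60 ± 0.22) and the replication protein Rpa2 (0.11 ± 0.23), which also serve mitotic cells, did not pass, nor did Psmc3ip (-0.58 ± 0.22), a cofactor of DMC1. Of 8 tested genes of telomere attachment and chromosome movement 4 rose, Terb1 by 3.33 ± 0.23, Majin by 1.35 ± 0.23, Terb2 by 1.06 ± 0.20 and Kash5 by 0.70 ± 0.20. The envelope proteins Sun1 (-0.49 ± 0.23) and Sun2 (0.30 ± 0.19) did not pass.

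Over the 6 meiotic lists together, 47 of 64 tested genes rose and 0 fell, against 6.64% and 10.9% of all genes, with a median of 1.20, against -0.14. All 3 TS34 arrays lay above all 3 TS13 arrays for 46 of the 64, against 16.4% of all genes. Lists were drawn up with earlier results of these data known, so their direction is a description. After quantile normalization the count was again 47 and 0. Without TS34 replicate 1, 2 genes of strand exchange and 1 of telomere attachment were called lower. Under other settings with all 6 arrays, up to 3 and up to 1 were called lower.

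Growth and transcription factors of the later oocyte gave few calls. Of 18 tested genes 1 rose, the ovarian transcription factor Sohlh2 by 1.14 ± 0.20, and 1 fell, the egg cortex gene Ooep by 0.93 ± 0.25. Their median was -0.05, and 0.02 after quantile normalization. Figla, Nobox, Lhx8, Gdf9, Bmp15 and Zp1 to Zp3, genes of primordial follicle formation, growth and the egg coat, averaged between 4.99 and 6.19 at TS34, where the 25th percentile of an array averaged 5.35, and their differences ran from -0.36 to 0.25.

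The 2 usable TS24 arrays place these changes within the span. Stra8 averaged 5.16 (TS13), 7.47 (TS24) and 10.2 (TS34), and Spata22 averaged 4.43, 4.85 and 8.27 at the same stages. At TS24 the 14 genes with the largest rises had covered a median of 38.1% of their rise, from 6.71% for Terb1 and 10.8% for Spata22 to 48.2% for Sycp1 and 57.0% for the coiled-coil gene Ccdc172. TS24 replicate 1 was above TS24 replicate 2 in all 14, for example at 8.05 against 5.56 for Meioc. Among the 14 largest falls the median covered was 23.2%, from 5.60% for the embryonic globin Hbb-y to 78.2% for the histone gene H2bc4, with Tdgf1 at 60.4%, and TS24 replicate 1 was the lower in 7. With 2 arrays at TS24, 8 of the 14 rises passed between TS13 and TS24 (limma) and all 14 between TS24 and TS34, and of the 14 falls 3 and 13 passed over the same intervals. These genes were chosen for a large TS34 minus TS13 difference, and the same arrays enter both intervals. Passing, and the share covered, thus depend in part on that choice, and these counts are descriptions.

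**Figure D2:**
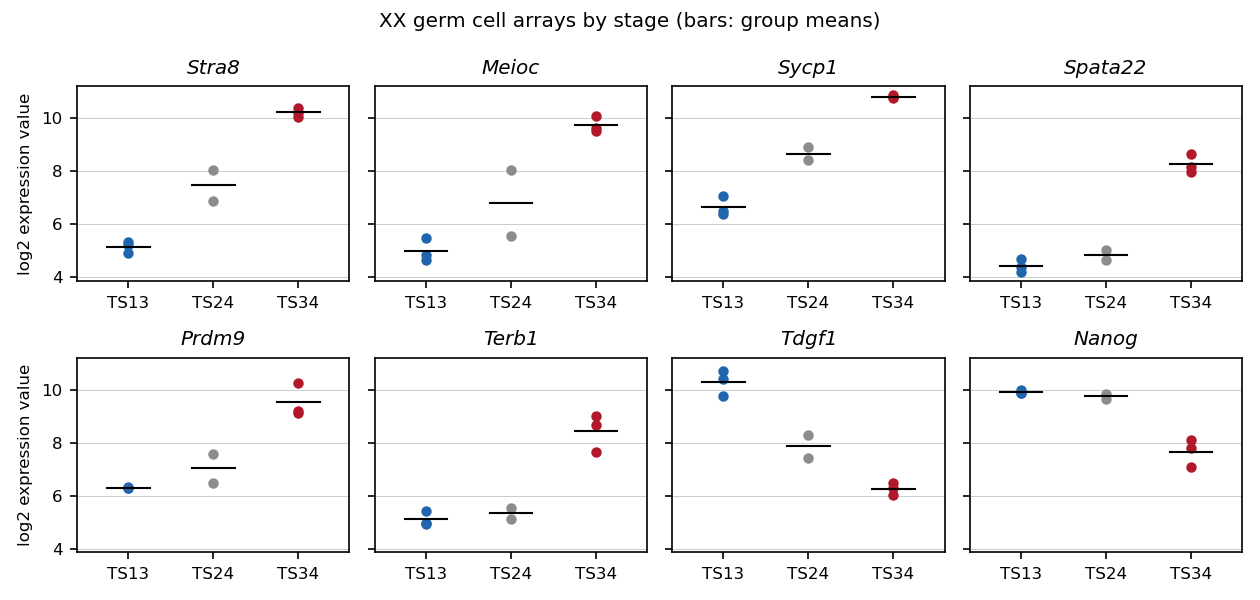
Log2 expression values (y axis) on each XX germ cell array at TS13 (3 arrays), TS24 (2 arrays) and TS34 (3 arrays) for 8 genes, with a bar at each group mean. Stra8 has means of 5.16, 7.47 and 10.2, Spata22 stays at 4.43 and 4.85 before reaching 8.27, and Tdgf1 has means of 10.3, 7.87 and 6.27.

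Pluripotency genes moved the other way. Of 28 tested members of that network 20 fell and 0 rose, with a median of -1.16 (-1.01 after quantile normalization), and between 15 and 20 fell with any array of the 6 left out. Tdgf1 (Cripto), the coreceptor of Nodal, had the largest fall of all genes that met the naming rule. It stood at 6.48, 6.31 and 6.02 at TS34, against 10.72, 10.42 and 9.76 at TS13. Every TS34 array was low and every TS13 array high, a difference of -4.03 ± 0.26 (limma adjusted p = 2.86e-17). Nanog stood at 8.11, 7.81 and 7.08 at TS34, against 9.98, 9.88 and 9.88 at TS13, so it fell to a level that was still above the median of the arrays. Its difference was -2.25 ± 0.24 (limma adjusted p = 4.94e-10). Zfp42 (Rex1) fell by 2.37 ± 0.23, the chromatin factor Utf1 by 2.10 ± 0.25 and Sox2 by 1.44 ± 0.22, and the RNA-binding gene L1td1 fell by 2.19 ± 0.24. Pou5f1, the gene behind the reporter by which the cells were sorted, had 10.64, 9.77 and 9.53 at TS34, against 11.03, 10.92 and 11.61 at TS13 (-1.21 ± 0.25). Its levels remained high at TS34 and did not overlap with TS13. The RNA regulator Lin28b (0.57 ± 0.23), Klf4 (0.38 ± 0.25) and Sall4 (-0.20 ± 0.24) did not pass, and the fall of Dppa5a was not called after quantile normalization. With that normalization 1 member of the network was called higher.

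Genes of primordial germ cell specification and migration followed the pluripotency genes, with 11 of 17 falling, 1 rising and a median of -0.84. Nanos3, which protects migrating germ cells, had 7.86, 7.64 and 7.44 at TS34, against 9.54, 9.32 and 9.71 at TS13, without overlap (-1.88 ± 0.22). The specification factors Tfap2c and Prdm1 fell by 1.87 ± 0.27 and 0.90 ± 0.21, and the migration receptor Cxcr4 by 1.19 ± 0.28. Cadherins moved apart. Epithelial Cdh1 fell by 1.11 ± 0.19 and neural Cdh2 rose by 1.51 ± 0.19. Dppa3 (Stella) at -0.37, the receptor gene Kit at -0.19 and Ifitm1 at -0.23 did not pass. Of 10 nodal and activin genes 5 fell, among them the inhibitors Lefty2 (by 1.13) and Lefty1 (by 0.81) and the effectors Foxh1 (by 1.06) and Smad3 (by 0.72), and 2 rose, the receptor Acvr2a (1.01 ± 0.24) and Smad2 (0.62 ± 0.21). Without TS34 replicate 3, or without TS13 replicate 1, 3 of them fell. Nodal itself was at -0.07.

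Germline genes that are silenced by promoter DNA methylation in the embryo and released in germ cells rose in 15 of 20 tested cases and fell in 0, with a median of 1.6. Beyond the synaptonemal genes of that list they included the X-linked transcription factor subunit Taf7l (4.54 ± 0.30), the surface protein Tex101 (3.41 ± 0.22), the mitochondrial carrier Slc25a31 (2.37 ± 0.23), the homeobox gene Rhox13 (2.33 ± 0.33), the bromodomain gene Brdt (2.31 ± 0.20) and Mael (1.98 ± 0.22). Taf7l was not confined to germ cells. In XX supporting cells it averaged 10.0 at TS13 and fell to 8.20 at TS34, against 6.34 in XX germ cells at TS13. Tuba3a and Tuba3b, near-identical tubulin genes whose probes may cross-hybridise, rose by 1.81 and 1.11. Of 23 germ granule and piRNA genes 11 rose, for example Gtsf1 (2.05 ± 0.22), Tdrd7 (1.93 ± 0.21) and the RNA helicase Ddx4 (1.19 ± 0.27), and Pld6 fell, a call that was lost after quantile normalization. The Piwi genes Piwil2 (0.05 ± 0.27) and Piwil4 (0.40 ± 0.20) did not pass. The 2 lists share members (Mael, Stk31, Tdrd1, Ddx4, Asz1 and Tex19.1). Neither set of rises was particular to XX. In XY germ cells 15 of the 23 germ granule genes rose, with a median of 0.94, against 0.49 in XX. Of these, 4 had an XX change below the XY change and 0 above. In the methylation list 12 of 20 rose in XY, with a median of 0.85, and 5 had an XX change above the XY change and 1 below.

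In the machinery that silences such genes, the maintenance cofactor Uhrf1 rose by 1.25 ± 0.22 and the H3K9 methyltransferase Setdb1 by 0.75 ± 0.20, while its corepressor Trim28 fell by 0.98 ± 0.21, in a list of 13 writers and erasers of DNA methylation with 2 rises and 3 falls, or 1 fall without TS13 replicate 1. Dnmt1, Dnmt3a and Tet1 did not pass, at -0.25, -0.48 and -0.38. Of 14 subunits of PRC1.6, the complex that represses germline genes through E-box and E2F sites, 4 fell (Pcgf6 by 0.86, Hdac1 by 0.79, Cbx3 by 0.76 and Max by 0.71) and 1 rose (Yaf2, 1.64 ± 0.24). Mga and E2f6, its DNA-binding subunits, were at 0.22 ± 0.20 and -0.38 ± 0.21. Of 21 other polycomb genes 5 fell, led by Cbx7 (by 1.02) and Jarid2 (by 0.88), and 2 rose. Without TS34 replicate 3 only 2 fell, without TS34 replicate 2 or TS13 replicate 3 only 3.

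Promoter windows were found for 37 of the 47 meiotic genes that rose. The E2F letters were in 15 of those 37 windows (40.5%), against 8.25% of the 13826 tested genes with a window and 13.3% of the 971 rising genes with one. CNCCTCAG was in 10 of 37 (27.0%), against 10.6% of tested and 15.2% of rising genes. The E-box was in 9 of 37 (24.3%), against 10.3% and 11.1%, and in 10 of the 15 rising genes of the methylation list (66.7%), including Sycp1, Sycp3, Hormad1, Taf7l, Ddx4 and Mael. Of the 1494 falling genes with a window, 14.2% held the E-box, a larger share than of rising genes, 9.44% the E2F letters and 7.83% CNCCTCAG. Among the 13 windows of falling pluripotency genes 0 held the E-box or the E2F letters and 5 (38.5%) held AGGTCA, against 16.2% of tested genes. The octamer was in 1 of the 13 and in 0 of the 37, and the cyclic AMP response element in 1 of the 37 and in 0 of the 13, where 1.71% and 3.01% of tested genes held them. A gene counts as holding a motif when any of its windows does, the 2 gene sets overlap, and windows differ in base composition: the median number of CG pairs was 19 in the 37 meiotic and in all tested windows, 22 in the methylation list and 11 among the falling pluripotency genes.

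The retinoic acid list had 3 rises and 1 fall among 22 genes (median 0.01). The falls numbered 4 without TS34 replicate 1 and 0 without TS34 replicate 2, TS34 replicate 3 or TS13 replicate 1, and after quantile normalization there were 4 rises and 3 falls. The cytosolic retinoic acid carrier Crabp2 stood at 10.34, 10.81 and 10.16 at TS34, against 9.04, 9.02 and 9.17 at TS13 (1.36 ± 0.27), and the retinol dehydrogenase Rdh10 rose by 1.58 ± 0.21 and the retinol carrier Rbp4 by 0.67 ± 0.22. Receptors Rara, Rarb and Rarg (0.39, -0.11 and -0.44) and the degrading enzymes Cyp26a1 and Cyp26b1 (0.34 and -0.11) did not pass. In the BMP list 1 of 15 rose (Smad5, 0.82 ± 0.21) and 1 fell (Smad7, by 0.80), and the target genes Id1, Id2 and Id3 were level at 0.01, 0.03 and 0.00. Counts in these signalling lists are small, where 6.64% of all genes rose and 10.9% fell. Of 12 WNT feedback targets 1 rose (Ccnd1, 1.18 ± 0.25) and 2 fell, with Axin2 at 0.49 ± 0.21. Among 16 growth factor receptors Igf1r rose by 1.64 ± 0.20 and Insr by 1.30 ± 0.28, whereas Fgfr2 fell by 1.27 ± 0.23, Il6st by 1.07 ± 0.23, Erbb3 by 1.03 ± 0.22 and Lifr by 0.67 ± 0.23, the last not after quantile normalization.

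Genes of mitosis fell more often than they rose, 9 against 2 of 25 with a median of -0.51. Aurora kinase A, of the spindle poles, stood at 9.09, 9.37 and 8.67 at TS34, against 10.94, 10.57 and 10.18 at TS13. The groups did not overlap (-1.52 ± 0.26). Aurkb fell by 1.34 ± 0.25 and the checkpoint kinase Bub1b by 1.21 ± 0.24, while its relative Bub1 rose by 0.75 ± 0.24 and the X-linked cyclin Ccnb3, known from early meiotic prophase in the mouse testis, rose by 2.36 ± 0.22. Falls of Kif20a, Ccna2 and Prc1 were not called after quantile normalization, and without TS34 replicate 3 only 4 genes of this list fell, without TS34 replicate 2 only 5. Mki67 (0.06 ± 0.23) and Top2a (-0.01 ± 0.25), which mark cycling cells, did not pass and stayed at means of 10.2 and 11.9 at TS34. In the replication list 7 of 25 fell, led by Mcm10 (by 1.14) and Rrm2 (by 0.97), and Gins3 rose (0.78 ± 0.22). The falls numbered 3 without TS34 replicate 3 and 4 without TS13 replicate 1. In XY germ cells 12 of the 25 fell, with a median of -0.64, against -0.35 in XX. In G1 and S phase control the cyclin Ccne2 (1.38 ± 0.28), Ccnd1, Rb1 (0.84 ± 0.21) and the inhibitors Cdkn2a (0.85 ± 0.19), Cdkn2c and Cdkn2d (0.65 and 0.64) rose, and E2f8 (by 1.39), Cdk4 (by 1.29), E2f1 (by 0.81) and E2f7 (by 0.69) fell, of 22 tested.

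Glycolytic genes fell in 11 of 20 cases, with a median of -0.64. Pfkp, the platelet-type phosphofructokinase, had 7.07, 6.63 and 6.56 at TS34, against 9.69, 9.46 and 9.92 at TS13. This was a clear separation and the third largest fall by the naming rule (-2.93 ± 0.24). The glucose transporter Slc2a3 fell by 1.54 ± 0.24, Aldoa by 1.38 ± 0.21, Pgam1 by 1.32 ± 0.20 and Pkm by 1.19 ± 0.20, and the one gene that rose was Pdk3 (1.18 ± 0.24), a kinase that turns off pyruvate dehydrogenase. Pdk1 and Pdha1 were not called after quantile normalization. Of 26 respiratory chain genes 2 rose, both core subunits of complex III (Uqcrc2, 0.80 ± 0.21, and Uqcrc1, 0.67 ± 0.21), and 1 fell, cytochrome c (Cycs, by 0.80). Their median was -0.10 as deposited and 0.06 after quantile normalization. Of 19 genes of cell death 3 rose (Bcl2l1, Bcl2 and Apaf1, by 0.63, 0.61 and 0.59) and 3 fell (Mcl1 by 1.12, Bid by 0.71 and Bak1 by 0.69). With 1 array left out the rises numbered 0 to 2, with 0 without TS34 replicate 2 or TS13 replicate 3. The falls numbered 1 without TS34 replicate 2, TS34 replicate 3 or TS13 replicate 1, and 5 without TS34 replicate 1. Imprinted genes had 1 rise (Zdbf2, 0.92 ± 0.24) and 3 falls (Peg10 by 1.31, Impact by 1.30 and Mest by 0.88) among 25, and 5 fell without TS34 replicate 1. Over all genes tested 6.64% rose and 10.9% fell, so the few calls among respiratory chain, cell death and imprinted genes do not set these lists apart.

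Outside the lists, the 14 largest rises included Ccdc172 (3.50), a coiled-coil gene, and Adad1 (3.09), an RNA-binding protein of germ cells. The falls included Gtsf1l (-3.47), a relative of the piRNA factor Gtsf1, the Notch target Hey1 (-2.85), the metallothionein Mt2 (-2.79), the aspartate aminotransferase Got1 (-2.77), the endoplasmic reticulum stress gene Serp1 (-2.77) and the long noncoding RNA Lncenc1 (-2.72), as well as Ankrd45 (-2.82), 1700019D03Rik (-2.73), Efcab10 (-2.71) and 1700019A02Rik (-2.57). H2bc4 (-2.72) is a histone gene whose probes may read its near-identical copies. Hbb-y, the embryonic beta globin of red cells, had 7.25, 5.91 and 6.88 at TS34, against 9.06, 9.13 and 10.27 at TS13 (-2.81 ± 0.74). With a trend and robust prior it was not called.

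**Figure D3:**
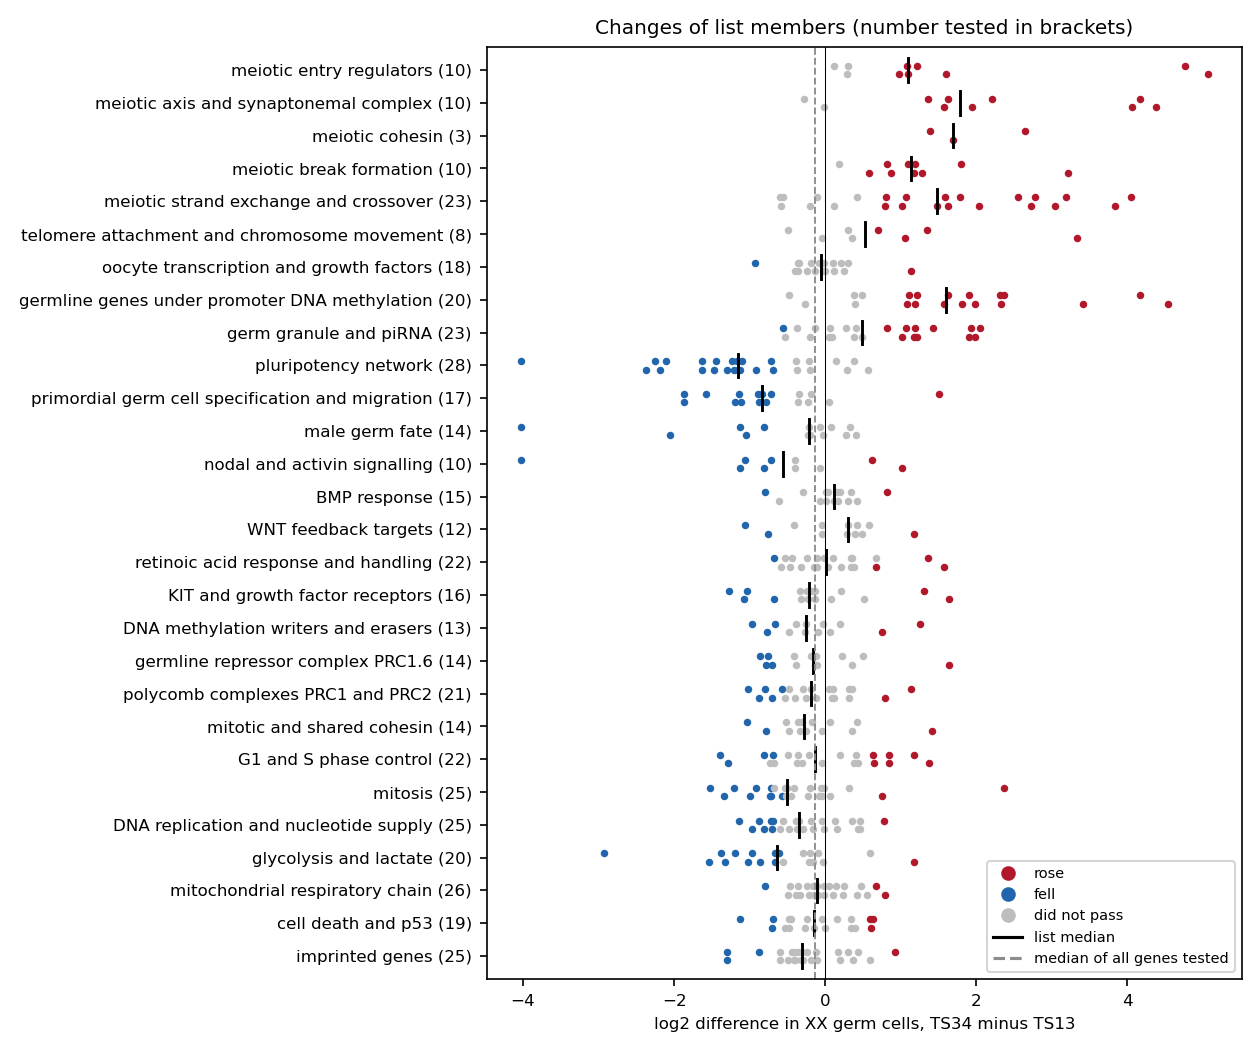
Log2 difference in XX germ cells, TS34 minus TS13 (x axis), of every tested member (points) of 28 gene lists (rows, number tested in brackets), coloured by whether the gene rose, fell or did not pass. Black bars mark list medians and the dashed line the median of all genes tested (-0.14). The 6 meiotic lists at the top hold red and grey points only, with medians from 0.53 to 1.79, and the pluripotency network has its median at -1.16.

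Markers of other cells were checked beside these values. None of 13 supporting cell markers was called (limma; their summed level, as a mean over the list, ran from 6.46 to 6.87 at TS34, against 6.61 to 6.94 at TS13), and 1 was called higher after quantile normalization (Fst, 0.48). Stromal markers ran from 6.20 to 6.99 at TS34, against 6.72 to 6.81 at TS13, with 1 of 8 falling (Nr2f2) and 1 called higher after quantile normalization (Col1a1, 0.48). Y-linked markers ran from 5.09 to 5.63 at TS34, against 5.42 to 5.61 at TS13, with overlapping groups and 0 of 7 called. In the endothelial, macrophage, erythroid, mesonephric and dissociation stress lists the mean level was lower on all 3 TS34 arrays than on all 3 TS13 arrays. Endothelial markers were at 6.05 to 6.37 at TS34, against 6.49 to 6.68 at TS13, with 1 of 8 falling (Cdh5). Macrophage markers were at 5.60 to 5.90 at TS34, against 5.98 to 6.05 at TS13, with 1 of 10 falling (Tyrobp), 3 without TS34 replicate 1 and 4 with array weights. Erythroid markers were at 6.16 to 6.53 at TS34, against 6.81 to 7.20 at TS13, and Hbb-y and Hba-x were the 2 of 7 that fell. Mesonephric markers were at 6.46 to 6.83 at TS34, against 6.85 to 6.98 at TS13, with 1 of 5 falling (Lhx1). Immediate early genes of dissociation stress were at 6.88 to 7.38 at TS34, against 7.67 to 7.87 at TS13, with 4 of 13 falling (Egr1, Fosb, Ier2 and Zfp36), and 1 without TS34 replicate 3. The erythroid transcription factors Gata1 and Klf1 were at 0.06 and -0.28, and 4 of 11 macrophage markers at TS34 and 3 at TS13 had means below the 25th percentile of the arrays. The part of these cells in the differences above was not tested, and in bulk samples fewer cells of a type and less RNA per cell cannot be told apart. Of 8 germ cell markers 3 rose (Sycp3, Ddx4 and Dazl, none of them with all 36 arrays) and 4 fell (Nanos3, Pou5f1, Dnd1 and Dppa5a), with a mean level of 9.84 to 10.3 at TS34, against 10.2 to 10.3 at TS13.

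To ask where XX germ cells differ from XY germ cells in this span, the same difference was taken in XY germ cells and the 2 were compared gene by gene. In XY germ cells 585 genes rose (3.33%) and 845 fell (4.81%). The XX change was above the XY change for 329 genes (1.87%) and below it for 319 (1.82%), in a test of the difference itself (limma) that shares its XX arrays with the comparison above. Of the 1166 genes that rose in XX, 278 rose in XY too and 240 had an XX change above the XY change. Of the 1907 that fell, 485 fell in XY and 191 had an XX change below the XY change. Single arrays moved these counts. In place of 329 there were 194 without XX TS13 replicate 3, 200 without XY TS34 replicate 1, 212, 532 and 217 without XY TS13 replicates 1, 2 and 3. In place of 319 there were 562 without XX TS34 replicate 1, 172 without XX TS34 replicate 3, 506 without XY TS34 replicate 1 and 201 without XY TS34 replicate 3.

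Among meiotic genes some rose in both sexes and others differed between them. Of the 64, 25 had an XX change above the XY change and 0 below, and 14 of the 47 that rose in XX rose in XY as well. Stra8 was at 0.17 ± 0.22 in XY, and its XX change exceeded the XY change by 4.89 ± 0.31 (limma adjusted p = 8.67e-17). Meioc differed by 4.49 ± 0.42, Meiob by 3.96 ± 0.39, M1ap of the strand exchange and crossover list by 3.90 ± 0.30 and Spata22 by 3.69 ± 0.28. M1ap rose by 2.78 ± 0.21 in XX and fell by 1.12 ± 0.21 in XY. By contrast Sycp1 rose by 3.04 ± 0.25 and Sycp2 by 3.54 ± 0.24 in XY, and the difference between the sexes was 1.13 ± 0.35 (limma adjusted p = 0.0551) for Sycp1 and 0.53 ± 0.34 for Sycp2, so neither passed. Spo11 was at 1.80 in XX and 1.57 in XY, a difference of 0.23 ± 0.33 that did not pass. AU015836, an X-linked gene, ranked among the 6 genes with the highest XX minus XY value (3.81 ± 0.39) through a fall of 3.32 ± 0.27 in XY, with 0.49 ± 0.27 in XX.

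Pluripotency genes fell in both sexes, 20 of 28 in XX and 14 in XY, and 6 of them had an XX change below the XY change, namely Tdgf1, L1td1, Zfp42, Utf1, Tcl1 and Dppa4. Tdgf1 fell by 4.03 in XX and by 1.56 in XY, where it still averaged 9.64 at TS34. Nanog fell by 2.25 in XX and by 1.65 in XY, a difference of -0.60 ± 0.34 that did not pass. Nanos3 was at 0.03 ± 0.22 in XY. Of 14 male germ fate genes 0 rose and 5 fell in XX (3 without TS34 replicate 3), and 9 had an XX change below the XY change. Nanos2, a regulator of male germ cells, was at 5.85, 6.18 and 5.85 in XX at TS34, against 5.78, 6.39 and 5.79 in XX at TS13, with overlapping groups, and its XX minus XY value was -3.82 ± 0.32. The same value was -4.10 ± 0.47 for the glutathione transferase Mgst2, -3.37 ± 0.31 for the homeobox gene Hesx1, -2.92 ± 0.31 for the diacylglycerol kinase Dgka, -2.67 ± 0.33 for Morc1 and -3.13 ± 0.48 for the fatty acid binding gene Fabp9. Morc1, which silences transposons in male germ cells, fell in XX by 2.05 ± 0.23. Fabp9 had 1 array far above the rest of its group, TS13 replicate 2, with 5.01, 5.10 and 4.79 in XX at TS34, against 6.22, 8.98 and 6.01 in XX at TS13. The BMP targets Id2 and Id3 were level in XX and were lower by 2.01 and 2.03 in XY, and Crabp1 was at 0.67 ± 0.27 in XX and -1.53 ± 0.27 in XY, with a difference that passed in each case.

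**Figure D4:**
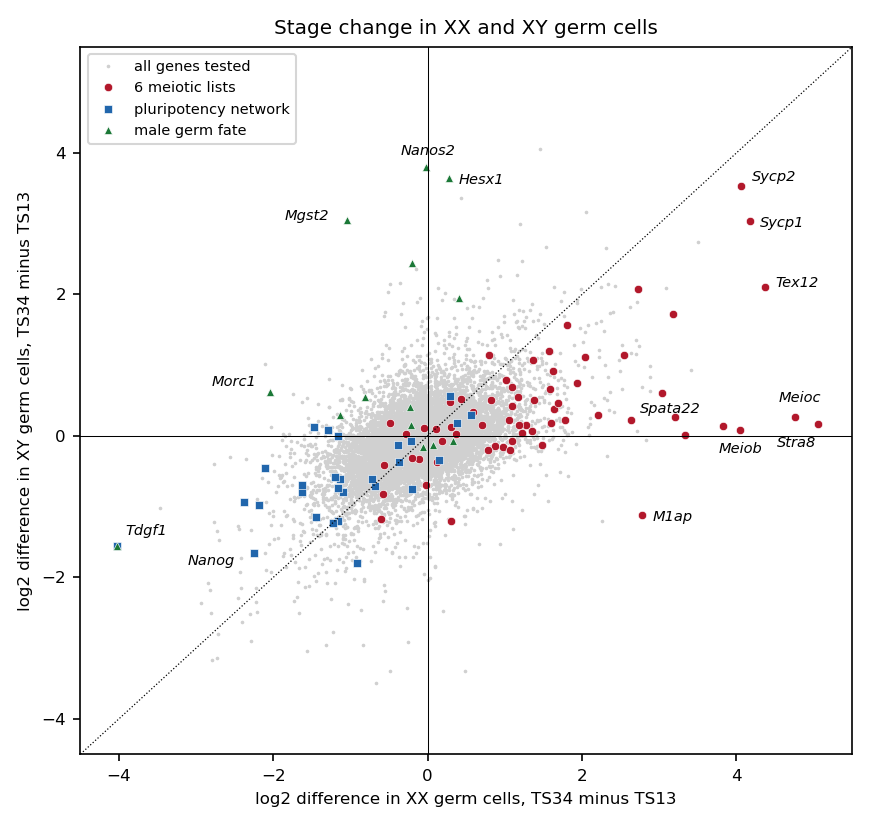
Log2 difference TS34 minus TS13 of each tested gene in XX germ cells (x axis) and in XY germ cells (y axis), with the 6 meiotic lists, the pluripotency network and the male germ fate genes marked. On the dotted line both changes are equal. Stra8, Meioc, Meiob and Spata22 lie at 3.83 to 5.06 in XX and at 0.08 to 0.27 in XY, Sycp1 and Sycp2 lie at 3.04 and 3.54 in XY, and Nanos2 and Hesx1 lie near 0 in XX.

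Compared with XX supporting cells, in which 468 genes rose (2.66%) and 347 fell (1.97%), the change of XX germ cells was above that of supporting cells for 670 genes (3.81%) and below it for 1108 (6.31%). Without XX TS34 replicate 3 the second number was 701. Of the genes that rose in germ cells 473 were among the first and of those that fell 795 among the second. Both tests use the same XX germ cell arrays, so part of this overlap is built in. For the meiotic lists 35 of 64 were above and 0 below, with a median change of 0.04 in supporting cells, and for the pluripotency network 1 of 28 was above and 14 were below. Each change was taken within a mouse line, but the line differs between the cell types. A stage change that differs by line therefore cannot be told apart from one that differs by cell type.

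X-linked genes stood higher relative to autosomal genes at TS34, in a design that cannot reach an exact p under 0.1. On each array the median of 16938 autosomal genes was subtracted from that of 609 X-linked genes, which gave -0.04, -0.11 and 0.08 on the TS34 arrays, against -0.21, -0.19 and -0.24 on the TS13 arrays of XX germ cells. The groups did not overlap, with means of -0.02 ± 0.10 and -0.21 ± 0.03 (SD, n = 3 each) and a difference of 0.19 (exact permutation test, two-sided, p = 0.1, the smallest that 3 against 3 arrays allow). In XY germ cells the same difference was -0.02 (exact permutation p = 0.5) and in XX supporting cells 0.07 (exact permutation p = 0.1). Whether these differences differ from one another was not tested. Of the X-linked genes 98 rose (16.1%, against 6.64% of all genes) and 59 fell (9.69%, against 10.9%). The inactive X is coated by Xist RNA, which was at 7.09, 6.86 and 6.78 at TS34, against 6.74, 7.69 and 6.75 at TS13, with overlapping groups (-0.15 ± 0.30).

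**Figure D5:**
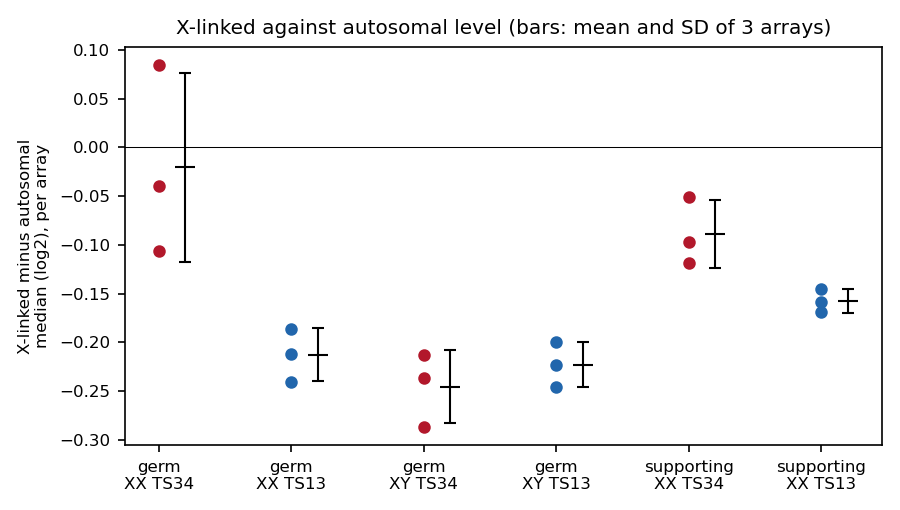
Difference of median log2 levels, X-linked less autosomal genes, on each array (points) at TS34 (red) and TS13 (blue) in XX germ cells, XY germ cells and XX supporting cells, with the mean and SD of 3 arrays beside them. XX germ cells average -0.02 at TS34, against -0.21 at TS13, and XY germ cells differ by -0.02.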

How the data were processed

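The authors deposited log2 expression values per probe set of Affymetrix Mouse Gene 1.0 ST arrays, made with RMA per the submitters' processing notes. Its version, the software and how probe sets were defined are not stated in the labels or file headers. RMA brings arrays to a common scale, and array medians still differed as deposited.

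Probe sets were named from the platform's annotation: of 35557, 21789 carried 1 symbol, 1621 carried several and 12147 were not listed. For a gene with several probe sets the one with the highest mean was used, which gave 19938 genes, of which 17571 exceeded the 25th percentile of an array on at least 3 arrays. Changes were fitted with limma 3.58.1 (R 4.3.3), with 1 mean per group over 35 arrays and 12 groups and no covariate. Calls used a Benjamini-Hochberg adjusted p under 0.05. The XX germ cell array at TS24 with a somatic profile was left out, and all 36 arrays were an alternative. Other alternatives were quantile normalization, median centring, the array median as a covariate, other filters, the compared arrays alone, a trend with a robust prior, array weights, replicate number as a block, the mean of a gene's probe sets, and each array left out in turn.

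Genes named are the 14 largest rises and 14 largest falls among genes called as deposited and after quantile normalization whose stages did not overlap, the 4 markers Stra8, Meioc, Sycp1 and Nanog, the 6 called genes with the highest and the 6 with the lowest XX minus XY value, and members of gene lists, called members of largest change first. The members and the lists were chosen with earlier results of these data known. In data simulated for 17571 genes with known log2 changes, the fit called 3 of the 67 genes set to differ by 0.5. It called 48 of 67 at a change of 1, all 66 at a change of 2, and 8 unchanged genes. Far fewer genes were set to change there than the 3073 called in the data. An adjusted p under 0.05 was thus harder to reach in the simulation, which cannot give the share of changes missed in the data.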

Additional observations from a re-analysis of the deposited data

Results flagged for a closer look

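The change in XX germ cells differed from that in XY germ cells by the test of the difference itself (limma, adjusted p under 0.05) for 648 genes. Of the named genes, the XX change exceeded the XY change by 4.89 for Stra8, 4.49 for Meioc, 3.96 for Meiob, 3.90 for M1ap, 3.81 for AU015836 and 3.69 for Spata22 on the log2 scale. It lay below the XY change, with XX minus XY values of -4.10 for Mgst2, -3.82 for Nanos2, -3.37 for Hesx1, -3.13 for Fabp9, -2.92 for Dgka and -2.67 for Morc1. Mgst2's own change in XX (-1.04) was not called without TS34 replicate 2, TS34 replicate 3, TS13 replicate 2 or TS13 replicate 3, and Fabp9 had 1 TS13 array at 8.98 and the other two at 6.22 and 6.01.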

How the results depend on the processing

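None of the 220 named or listed genes called turned direction under the settings run, while the medians of the oocyte and respiratory chain lists changed sign after quantile normalization. For these genes 11 other settings gave 2409 values, of which 2320 kept the call and 89 (56 genes) lost it, 52 of them with all 36 arrays. With 1 of 6 arrays left out, 1147 of 1320 values kept the call. After quantile normalization 2020 genes rose, 512 genes had an XX change above the XY change and 1011 above that of supporting cells. With array weights 2958 genes fell. The XX and XY changes then differed for 1520 genes (1060 below), and the XX germ and supporting changes for 3322 (1246 above, 2076 below). With all 36 arrays these were 286 (138 above, 148 below) and 1133 (683 below). Rises then numbered 4 among the meiotic entry, 5 among the axis, 6 among the germ granule, 1 among the meiotic cohesin and 10 among the methylation list genes and 0 among germ cell markers, and falls 12 in the pluripotency network, 7 among primordial germ cell genes and 5 in mitosis. With the dim-gene filter at the 50th percentile 2 telomere attachment genes rose. Leaving out 1 array gave 2104 to 3968 calls (846 to 1084 rises, 1092 to 2925 falls), 421 to 857 differences from XY (194 to 532 above, 172 to 562 below) and 1258 to 2132 from supporting cells (526 to 644 above, 701 to 1526 below). The cause was not tested. The X-linked minus autosomal difference was 0.172 to 0.227 over settings and 0.140 to 0.235 with 1 array left out. With the replicate number as a block 3044 genes were called (1145 rose, 1899 fell), 647 against XY and 1780 against supporting cells. Same-numbered arrays deviated together with r of 0.067, 0.194 and -0.078, and differently numbered ones with r from -0.244 to 0.149. With 3 arrays a group these values cannot show whether the numbers pair the samples. Changes of 0.5 were mostly missed in the simulation, in which far fewer genes changed than were called in the data, so the share missed in the data may be smaller.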

Other observations

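The families below were picked by gene name after their values were seen, so the counts are descriptions, to be read beside the 6.64% of all genes that rose and the 10.9% that fell. Small nucleolar RNAs guide the modification of ribosomal RNA. Of 30 box C/D genes 16 fell and 0 rose, with a median of -1.01 in XX and -0.29 in XY, and of 19 box H/ACA genes 10 fell, with a median of -0.89. Of 10 Utp genes of the processome that matures small ribosomal subunits 7 fell. Of 40 proteasome genes 15 fell and 0 rose (median -0.50), of 48 translation initiation factors 16 fell and 3 rose (-0.44), of 77 mitochondrial ribosomal proteins 17 fell and 1 rose (-0.40), and of 61 cytosolic ribosomal proteins 7 fell (-0.32), a share near that of all genes, against a median of -0.14 over all genes. After quantile normalization 8 of these 61 fell and 4 rose, with a median of -0.14. Of 35 Vps genes of vesicle sorting 9 rose and 1 fell, and of 14 Ift genes of ciliary transport 4 rose and 1 fell.

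The 4 hairpins of the cluster that holds Mir17 on chromosome 14 analysed here all fell. The probes read the hairpin or its primary transcript, not the mature miRNA. Mature sequences from RefSeq are shown with the seed (bases 2 to 8) in capitals, since miR-17-5p and miR-20a-5p share theirs.
mmu-miR-17-5p: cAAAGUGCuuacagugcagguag
mmu-miR-20a-5p: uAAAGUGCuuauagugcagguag
mmu-miR-18a-5p: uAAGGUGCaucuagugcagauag
mmu-miR-19b-3p: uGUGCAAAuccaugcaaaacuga
Mir18 stood at 6.64, 6.53 and 5.65 at TS34, against 8.93, 8.61 and 8.64 at TS13, without overlap (-2.45 ± 0.29). Mir20a fell by 1.89, Mir17 by 1.73 and Mir19b-1 by 1.55. In XY germ cells the changes were -1.32 for Mir18, -0.55 for Mir20a, -0.86 for Mir17 and -0.53 for Mir19b-1.

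B2m, the light chain of class I histocompatibility molecules, stood at 8.73, 8.86 and 8.62 at TS34, against 6.07, 6.66 and 5.93 at TS13. It rose by 2.51 ± 0.27 in XX, with a change of 0.66 in XY and a difference of 1.86, whereas H2-K2, the class I gene tested beside it, was at 0.23 and did not pass. Of 4 metallothioneins Mt2 and Mt1 fell by 2.79 and 1.74, and Mt3 and Mt4 did not pass, at -0.14 and 0.18.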
